A study of Mus musculus with 15 samples.

Results

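The genes described here handle phosphate and active vitamin D in the kidney. They comprise 4 sodium-phosphate cotransporters (Slc34a1, Slc34a3, Slc20a1 and Slc20a2), the scaffold protein Pdzk1, the FGF23 co-receptor Klotho (Kl), the vitamin D receptor (Vdr) and the enzymes that make and degrade active vitamin D (Cyp27b1 and Cyp24a1). They were chosen by name through their Ensembl identifiers, and all 9 were found among the 54532 genes listed. RNA-seq of whole kidney was available for 15 male C57BL/6 mice, 8 weeks old at the start, with 5 mice in each group. Control mice (C) ate a normal diet, and CKD model mice (M) ate chow with 0.25% adenine for 4 weeks and then standard chow until week 8. Mice of the AA group received the same adenine feeding together with 30 mg/kg of asiatic acid, a triterpenoid of Centella asiatica, by daily gavage over the 8 weeks. C and M mice were gavaged with the vehicle, DMSO in saline, so all groups shared the gavage. No group received asiatic acid without adenine, and 1 dose was sequenced.

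Filtered phosphate is taken back mainly in the proximal tubule, where the NaPi-IIa (Slc34a1) and NaPi-IIc (Slc34a3) proteins sit in the brush border, held there in part by PDZ scaffolds such as Pdzk1. The bone hormone FGF23, acting through an FGF receptor with Klotho, and parathyroid hormone, acting through Pth1r, both lower these transporters. FGF23 also lowers Cyp27b1 and raises Cyp24a1 in the healthy kidney, which reduces the ligand of Vdr. Phosphate retention, a loss of Klotho and low active vitamin D are textbook features of chronic kidney disease.

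Expression is given in FPKM, the deposited count of fragments scaled to the length of the gene and the size of the library. From the smallest steps between FPKM values, the libraries held 13647020 to 28884426 fragments on genes, of which 53.0% to 87.2% were mitochondrial. Outside the mitochondrial genes 6951358 to 13576596 fragments remained in C, 2077628 to 7142897 in M and 2225764 to 4271192 in AA. M mice 1 to 3 stood apart from M mice 4 and 5. They had 10068 to 12222 genes above 0 against 23040 and 25460, and they listed at 0 between 14.2% and 23.4% of the genes with a median of at least 2 FPKM in the other libraries, against 0.230% and 0.0%. C mouse 2 (5.01%) and AA mice 1 and 2 (3.46% and 3.62%) had more such genes than the rest of their groups. Of 20 housekeeping genes, 2 were listed at 0 in M mouse 1 and 1 in each of AA mice 1 and 2, so a 0 in these libraries is given only as a listing. The part of these library differences in the results below was not tested beyond leaving the libraries out. The kidney origin was checked with 15 proximal tubule markers, all above 0 in all 5 C mice. Their summed level was 383 to 2064 FPKM in C, 36.6 to 140 FPKM in M and 89.5 to 144 FPKM in AA, and fewer tubule cells and less RNA per cell cannot be told apart in whole kidney.

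The 300 bases around the RefSeq starts (GRCm38.p6, 250 before and 50 after) of the 3 members called lower in M than in C are shown. Of these, Slc34a3 was tested only through its C values, and whether the 3 genes changed together was not tested. RefSeq starts were matched for 7 of the 9 members, and Slc20a2 and Cyp24a1 were not matched. Capitals mark each exact match, on either strand, to 1 of 8 words: GTTAAT for HNF1 factors, TATAAA of the TATA box, CACGTG of the E-box, CCAAT of the CCAAT box, GGGCGG of the GC box, and the nuclear receptor words AGGTCA with its variants GGTTCA and also AGTTCA.
Slc34a1 (chr13:55399398-55399697, plus strand): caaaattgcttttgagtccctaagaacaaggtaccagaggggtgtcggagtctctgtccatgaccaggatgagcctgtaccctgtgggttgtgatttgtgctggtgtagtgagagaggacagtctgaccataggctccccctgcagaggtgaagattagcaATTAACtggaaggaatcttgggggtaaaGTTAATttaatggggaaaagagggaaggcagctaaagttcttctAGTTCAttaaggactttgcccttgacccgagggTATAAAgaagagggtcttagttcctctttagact
Slc34a3 (chr2:25234185-25234484, minus strand): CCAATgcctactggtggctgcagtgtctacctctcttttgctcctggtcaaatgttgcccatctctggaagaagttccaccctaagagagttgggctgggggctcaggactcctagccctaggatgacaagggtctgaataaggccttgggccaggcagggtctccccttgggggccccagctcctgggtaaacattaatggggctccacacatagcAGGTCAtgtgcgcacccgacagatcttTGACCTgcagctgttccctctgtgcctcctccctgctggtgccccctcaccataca
Pdzk1 (chr3:96829815-96830114, plus strand): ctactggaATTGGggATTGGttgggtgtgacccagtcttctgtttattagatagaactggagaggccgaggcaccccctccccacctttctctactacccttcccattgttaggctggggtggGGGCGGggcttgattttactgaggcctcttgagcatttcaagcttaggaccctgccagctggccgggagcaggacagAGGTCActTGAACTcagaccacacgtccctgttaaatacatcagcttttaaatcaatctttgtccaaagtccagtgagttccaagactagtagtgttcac
The Slc34a1 window held GTTAAT, the half-site letters of HNF1 factors, once on each strand, at positions -61 and -89 from the start. This word occurred in 7.1% of 32851 promoter windows of the same length. It held TATAAA (13.6% of windows) at 17 and AGTTCA (14.0% of windows) at -17. Slc34a3 held AGGTCA, the half-site letters of many nuclear receptors, at -33 and -6 on opposite strands (16.3% of windows), and CCAAT (37.4% of windows) at -250. Pdzk1 held AGGTCA at -50, AGTTCA at -42, GGGCGG (35.7% of windows) at -127 and CCAAT at -242 and -235. RefSeq gives Pdzk1 another start (window chr3:96831921-96832220), whose window held CCAAT once, at 43, and no other of the 8 words. CACGTG (7.15% of windows) and GGTTCA (10.4% of windows) were in none of the 3 windows. These are matches of letters only.

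The kidney's main phosphate cotransporter showed the largest difference among the 9 genes on the scale of the test. Slc34a1 (ENSMUSG00000021490, chromosome 13, 55398187 to 55415592 on GRCm38, plus strand) measured 71.0, 905, 106, 140 and 339 FPKM in C mice 1 to 5. It measured 1.97, 0.184, 0.378, 10.9 and 16.9 FPKM in M mice and 2.62, 2.89, 4.50, 3.35 and 4.59 FPKM in AA mice. The lowest C mouse was above every M and AA mouse, and M mice 4 and 5 were above all AA mice while M mice 1 to 3 were below them. The group means were 312 ± 347 FPKM in C, 6.06 ± 7.49 FPKM in M and 3.59 ± 0.912 FPKM in AA (SD, n = 5 each). On the log2(FPKM + 1) scale, which understates the change of low values, Slc34a1 fell by 5.65 in M against C (SE 0.85, limma adjusted p = 0.0155). It was likewise lower in AA than in C (log2 fold change -5.48, SE 0.56, adjusted p = 0.000133), and AA and M differed by 0.17 (95% interval -1.24 to 1.59, adjusted p = 0.887).

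Slc34a3, the second brush-border cotransporter of this family (ENSMUSG00000006469, chromosome 2, 25228898 to 25234364, minus strand), was measured in every C mouse at 1.35, 9.16, 2.16, 4.69 and 5.78 FPKM. It was listed at 0 in all 5 M mice and in AA mice 1 to 4, and AA mouse 5 had 0.0527 FPKM from 2 fragments. All C mice thus lay above all M and AA mice. In M mice 4 and 5, where few other genes were listed at 0, a count of 0 allowed up to 0.0434 and 0.0408 FPKM (3 fragments per library, counting error only), and the zeros of M mice 1 to 3 are listings only. The fitted log2 fold change was -2.30 in M vs. C (SE 0.37, adjusted p = 0.0182) and -2.29 in AA vs. C (SE 0.35, adjusted p = 0.000813), and AA vs. M was not tested for want of values above 0. Slc34a3 met the filter of 5 values above 0 through the 5 C mice, the group where it is high, so these p-values were conditioned on the outcome and the values by mouse are what can be read.

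Of the 2 cotransporters of the Slc20 family, which most cells use to take up phosphate, Slc20a1 was lower in AA than in C and Slc20a2 passed in no comparison. Slc20a1, or Pit1 (ENSMUSG00000027397, chromosome 2, 129198764 to 129211616, plus strand), measured 2.05, 11.0, 2.79, 6.17 and 4.86 FPKM in C mice. It measured 0.278, 1.82, 1.25, 3.45 and 11.4 FPKM in M mice and 1.17, 1.013, 0.943, 0.897 and 0.512 FPKM in AA mice. Each AA mouse was below the lowest C mouse, and the M mice spanned both groups, with M mouse 5 alone above every C mouse. Slc20a1 fell by 1.58 on the log2 scale in AA against C (SE 0.33, adjusted p = 0.00404). In M vs. C the difference was -0.74 (95% interval -1.95 to 0.47, adjusted p = 0.534), and in AA vs. M it was -0.84 (95% interval -1.89 to 0.20, adjusted p = 0.256).

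Slc20a2, or Pit2 (ENSMUSG00000037656, chromosome 8, 22476788 to 22569612, plus strand), measured 1.498, 2.59, 1.504, 1.46 and 2.14 FPKM in C mice and 1.74, 0.660, 0.654, 1.93 and 0.689 FPKM in AA mice. M mouse 1 was listed at 0, and the other M mice had 1.66, 1.95, 1.32 and 2.35 FPKM. The 3 groups overlapped, and no comparison passed the threshold: M minus C was -0.30 (95% interval -1.04 to 0.44, adjusted p = 0.674), AA minus M was -0.14 (adjusted p = 0.828) and AA minus C was -0.44 (95% interval -0.96 to 0.07, adjusted p = 0.160). The log2 ratio of Slc20a1 to Slc20a2 within a library averaged 1.014 ± 0.616 in C and -0.122 ± 0.383 in AA (SD, n = 5), without overlap (two-sided exact permutation test p = 0.00794, adjusted over 21 ratio tests 0.0208). With a pseudocount of 0.1 this difference was -1.48 with an adjusted p of 0.0625.

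**Figure D1:**
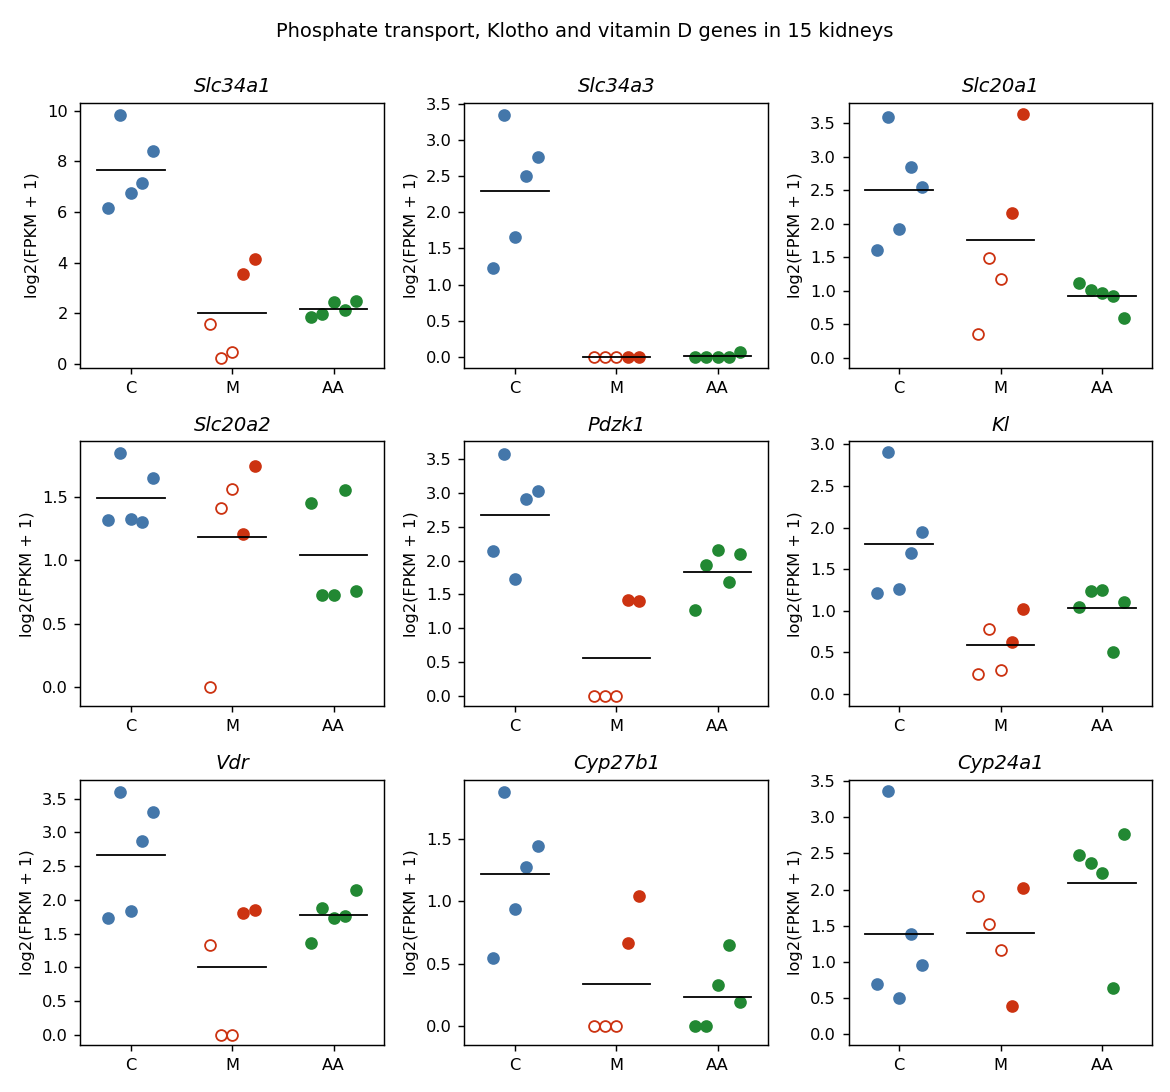
Expression of the 9 genes in each kidney, as log2(FPKM + 1) on the vertical axis of each panel, for C, M and AA mice, with points for mice 1 to 5 from left to right, open points for M mice 1 to 3 and a line at the mean of the 5 mice. C mice lie above all M and AA mice for Slc34a1 and Slc34a3, and the M mice split for Slc34a1, Slc20a1, Pdzk1, Vdr and Cyp27b1, with mice 4 and 5 above mice 1 to 3.

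Pdzk1, the brush-border scaffold (ENSMUSG00000038298, chromosome 3, 96829284 to 96870926, plus strand), measured 3.42, 10.9, 2.32, 6.49 and 7.17 FPKM in C mice. It was listed at 0 in M mice 1 to 3, measured 1.67 and 1.65 FPKM in M mice 4 and 5, and measured 1.42, 2.84, 3.45, 2.21 and 3.30 FPKM in AA mice. All C mice were above all M mice, and of the AA mice mouse 1 lay below M mice 4 and 5. Pdzk1 fell by 2.11 on the log2 scale in M vs. C (SE 0.44, adjusted p = 0.0363). It was the member that passed in AA vs. M, with a log2 fold change of 1.27 (SE 0.38, adjusted p = 0.0329). The difference between AA and C was -0.85 (SE 0.34, adjusted p = 0.0673). Both calls were lost without M mice 1 to 3, with M mice 4 and 5 left. The log2 fold change was then -1.27 in M vs. C (adjusted p = 0.309) and 0.42 in AA vs. M (adjusted p = 0.434). Calls over all genes fell with them, from 291 to 14 in M vs. C and from 2533 to 1715 in AA vs. M. The AA vs. M call was also lost without any 1 of M mice 1 to 3 or AA mice 2 to 5 (adjusted p from 0.0503 to 0.0828). Pdzk1 also shares 1333 of its 3556 exon bases with Gpr89 on the opposite strand, and the sources used here do not say whether the counting kept strand.

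Klotho, the co-receptor that makes FGF receptors responsive to FGF23 (ENSMUSG00000058488, chromosome 5, 150952607 to 150993817, plus strand), measured 1.32, 6.48, 1.39, 2.24 and 2.87 FPKM in C mice. It measured 0.185, 0.718, 0.221, 0.545 and 1.03 FPKM in M mice and 1.07, 1.36, 1.39, 0.422 and 1.15 FPKM in AA mice. Every M mouse was below every C mouse, whereas the AA mice overlapped both groups, with AA mouse 3 just short of C mouse 3. The means were 2.86 ± 2.12 FPKM in C, 0.539 ± 0.352 FPKM in M and 1.08 ± 0.390 FPKM in AA (SD, n = 5 each). None of the Klotho comparisons passed: the log2 fold change was -1.21 in M vs. C (SE 0.35, adjusted p = 0.113), 0.44 in AA vs. M (adjusted p = 0.267) and -0.77 in AA vs. C (adjusted p = 0.0728).

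Among the vitamin D genes, the receptor Vdr (ENSMUSG00000022479, chromosome 15, 97854425 to 97910630, minus strand) measured 2.31, 11.1, 2.56, 6.34 and 8.85 FPKM in C mice. M mice 2 and 3 were listed at 0, M mice 1, 4 and 5 had 1.53, 2.50 and 2.61 FPKM, and AA mice had 1.56, 2.69, 2.31, 2.40 and 3.42 FPKM. The groups overlapped at the 2 lowest C mice, and no comparison passed. M minus C was -1.67 on the log2 scale (95% interval -2.74 to -0.59, adjusted p = 0.124), AA minus M was 0.78 (adjusted p = 0.213) and AA minus C was -0.89 (adjusted p = 0.0711).

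Cyp27b1, the 1-alpha-hydroxylase that makes active vitamin D (ENSMUSG00000006724, chromosome 10, 127048250 to 127053006, plus strand), measured 0.460, 2.67, 0.918, 1.41 and 1.72 FPKM in C mice. It was listed at 0 in M mice 1 to 3 and AA mice 1 and 2, with 0.583 and 1.06 FPKM in M mice 4 and 5 and 0.259, 0.566 and 0.145 FPKM in AA mice 3 to 5. In AA vs. C the log2 fold change of -0.98 (SE 0.24, adjusted p = 0.00945) stopped just short of the fold threshold of 1, so it was not called. It was called with a pseudocount of 0.1 (-2.57, adjusted p = 0.00983), with TPM (-1.73, adjusted p = 0.00147), with limma voom on recovered fragments (-3.65, adjusted p = 0.0132), and without any 1 of C mice 1 and 3 and AA mice 3 and 4 (-1.15 to -1.004). In M vs. C it was -0.87 (95% interval -1.55 to -0.19, adjusted p = 0.195), and in AA vs. M it was -0.11 (adjusted p = 0.776).

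Cyp24a1, the 24-hydroxylase that degrades active vitamin D (ENSMUSG00000038567, chromosome 2, 170482708 to 170497145, minus strand), measured 0.621, 9.32, 0.414, 1.62 and 0.949 FPKM in C mice. It measured 2.76, 1.88, 1.24, 0.306 and 3.06 FPKM in M mice and 4.58, 4.17, 3.67, 0.560 and 5.81 FPKM in AA mice. Mouse 4 was the lowest of both M and AA, and the other 4 AA mice were above all C mice but mouse 2. No comparison passed: M minus C was 0.02 on the log2 scale (95% interval -1.11 to 1.14, adjusted p = 0.987), AA minus M was 0.69 (adjusted p = 0.296) and AA minus C was 0.71 (adjusted p = 0.312). Without C mouse 2, however, the log2 fold change in AA vs. C was 1.21 with an adjusted p of 0.0442. This was the 1 call in 10 fits with 1 library left out. The 12 other alternatives called it 0 times and gave 0.013 to 1.11 (limma adjusted p from 0.220 to 0.987). The log2 ratio of Cyp24a1 to Cyp27b1 within a library averaged 0.169 ± 0.798 in C, 1.06 ± 0.829 in M and 1.86 ± 1.08 in AA (SD, n = 5 each), and AA vs. C had an exact permutation p of 0.0317 (adjusted 0.0556).

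Counted together in M vs. C, leaving out Slc34a3, which was tested only through its C values, 0 of 8 genes were higher and 2 were lower (Slc34a1 and Pdzk1), where 1.11% of all 21153 genes tested were lower. Those 2 and Klotho did not overlap between the groups, against 4.72% of all genes, and the median log2 fold change of the 8 was -1.04 against -0.12 for all genes. Both calls, and that of Slc34a3, were lost without M mice 1 to 3 (Slc34a1 -3.79, adjusted p = 0.124, Slc34a3 -2.30, adjusted p = 0.122), although C and M still did not overlap for these genes. The calls were also lost for Slc34a1 without C mouse 5 (adjusted p = 0.0588) or M mouse 3 (0.0525), for Slc34a3 without M mouse 2 (0.0518) or M mouse 3 (0.0601), and for Pdzk1 without any 1 of C mice 2, 4 and 5 or M mice 1 to 3 (0.0725 to 0.113). With every gene above 0 in any library tested, the adjusted p was 0.0504 for Slc34a1 and Slc34a3 and 0.0901 for Pdzk1. The Pdzk1 call was also lost with a pseudocount of 0.1 (adjusted p = 0.0586), without the intensity trend (0.0534) and with library quality weights (0.0774). Klotho and Vdr, not called here, were each called in 3 of the 14 alternatives run for this comparison.

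In AA vs. M, which shares the M libraries with M vs. C, 8 genes were tested, 1 was higher (Pdzk1) and 0 were lower, where 11.7% of 19798 genes were higher. None of the 8 had groups apart, against 13.2% of all genes, and their median of 0.31 stood beside 0.17 for all genes. Slc34a1 took opposite signs against the 2 kinds of M library. Without M mice 1 to 3 it was lower in AA (log2 fold change -1.69, adjusted p = 0.0137), as was Slc20a1 (-1.97, adjusted p = 0.0162), and without M mice 4 and 5, a choice made after seeing the data, it was higher in AA (1.42, adjusted p = 0.0163), as was Vdr (1.33, adjusted p = 0.0253).

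In AA vs. C, again leaving out Slc34a3, 0 of 8 genes were higher and 2 were lower (Slc34a1 and Slc20a1), where 9.61% of 21898 genes were lower and 10.2% higher. The same 2 were the members among these 8 whose groups did not overlap, against 24.0% of all genes, and the median of the 8 was -0.87 against 0.09. Both calls held in all 12 alternatives run and in all 10 fits without 1 library.

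**Figure D2:**
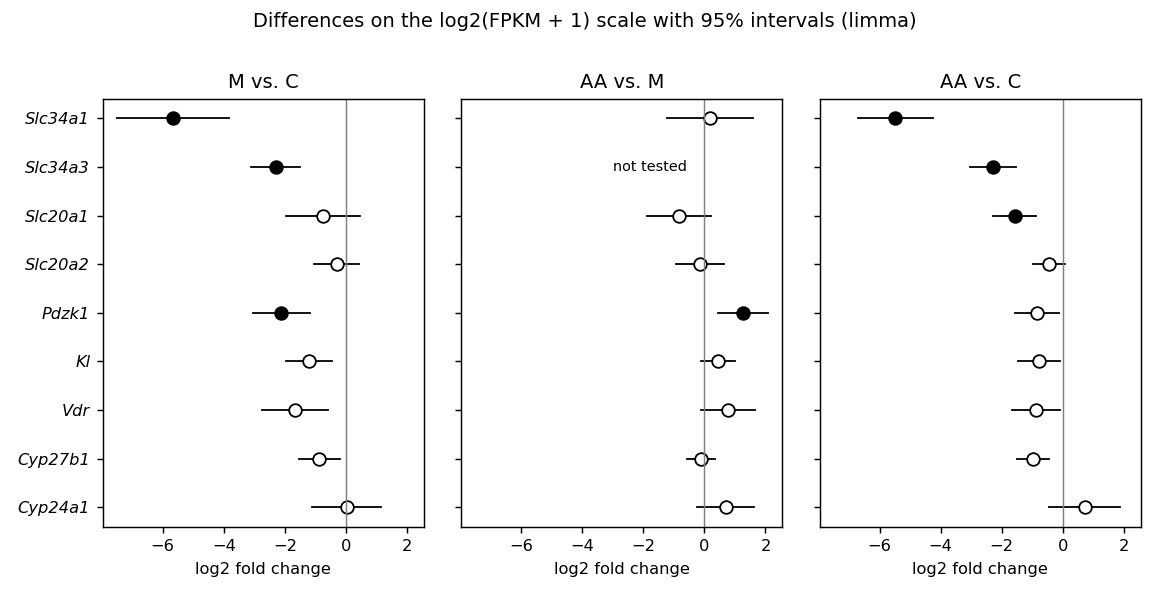
Log2 fold change of each gene on the log2(FPKM + 1) scale (horizontal axis) with its 95% interval in the 3 comparisons of 5 mice against 5, filled where the gene passed both thresholds. Slc34a1 has the largest difference in M vs. C (-5.65) and AA vs. C (-5.48), and Pdzk1 is the filled point of AA vs. M (1.27).

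Members were then set against markers of the tubule segment that expresses them, within each library. The log2 ratio of Slc34a1 to the mean of the 15 proximal tubule markers averaged 3.59 ± 0.720 in C, 0.129 ± 1.40 in M and -0.251 ± 0.215 in AA (SD, n = 5 each). Slc34a1 was thus lower relative to the mean of these markers by 3.46 in M and by 3.84 in AA, in every mouse (exact permutation p = 0.00794 each, the smallest this design gives, adjusted 0.0208). These 2 differences kept their side of the threshold with a pseudocount of 0.1 (-3.56 and -3.81, adjusted p = 0.0417). Without M mice 1 to 3 the M vs. C difference was -1.98, with C and M mice 4 and 5 still apart. Of the 15 markers themselves, 7 were lower in M vs. C, 8 were lower in AA vs. C and 2 were higher in AA vs. M (Acsm2 and Hnf4a). The markers differed widely, so the mean does not stand for each of them. In M vs. C their log2 fold changes ran from -0.43 (Gatm) to -4.37 (Slc27a2), beside -5.65 for Slc34a1. In AA vs. C they ran from 0.41 (Gatm) to -4.59 (Slc27a2), beside -5.48 for Slc34a1.

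For Pdzk1 the same ratio was -1.39 ± 0.220 in C, -1.31 ± 0.489 in M and -0.596 ± 0.286 in AA (SD, n = 5 each). It was 0.79 higher in AA than in C (exact permutation p = 0.00794, adjusted 0.0208). Klotho, set against 7 markers of the distal convoluted tubule, had ratios of -0.594 ± 0.273, -0.313 ± 0.183 and 0.0505 ± 0.197 (SD, n = 5 each), higher by 0.64 in AA than in C (adjusted p = 0.0208) and by 0.36 in AA than in M (adjusted p = 0.0455). The summed level of these 7 markers was 29.7 to 152 FPKM in C, 6.56 to 12.7 FPKM in M and 5.01 to 10.1 FPKM in AA, with 3 of 7 lower in both M vs. C and AA vs. C. Whether the Pdzk1 and Klotho differences passed depends on the pseudocount. With 0.1 they were 0.95 and 0.83 in AA vs. C, with an adjusted p of 0.0556 each. The AA vs. M difference of Klotho had an adjusted p of 0.365 with that pseudocount and 0.250 without M mice 1 to 3, and passed in 1 of 10 tests with 1 library left out. For Pdzk1 no M vs. C difference can be read, since the ratios of M mice 1 to 3, where it is listed at 0, hold only the markers, and the difference went from 0.08 to -1.15 with a pseudocount of 0.1.

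The ratios of the low transporter add little, since most of its values are 0. The log2 ratio of Slc34a1 to Slc34a3 was 5.36 in C, 2.00 in M and 2.16 in AA, and its M vs. C difference of -3.35 was -1.24 (adjusted p = 0.431) with a pseudocount of 0.1. Slc34a3 to the proximal tubule markers differed by -0.11 in M vs. C, by -0.54 in AA vs. M and by -0.65 in AA vs. C. The size of these differences depends on the pseudocount. With 0.1 the M vs. C difference became -2.33 (exact permutation test, adjusted p = 0.0417). That of AA vs. C became -3.16 (adjusted p = 0.0417), and that of AA vs. M became -0.83. The small M vs. C difference with a pseudocount of 1 therefore does not show that Slc34a3 fell only as far as the markers.

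**Figure D3:**
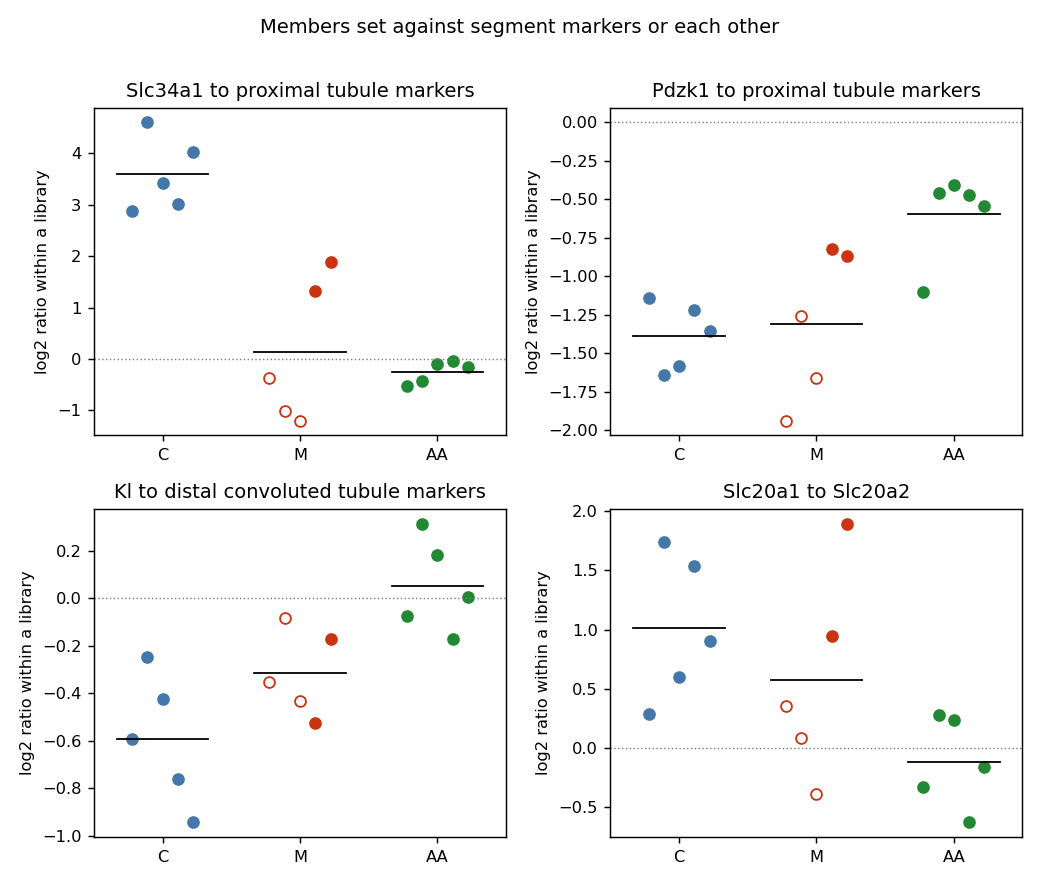
Log2 ratios within a library (vertical axis) for Slc34a1 and Pdzk1 against the mean of 15 proximal tubule markers, for Klotho against 7 distal convoluted tubule markers, and for Slc20a1 against Slc20a2, with points for mice 1 to 5, open points for M mice 1 to 3 and a line at the mean. Slc34a1 lies above all M and AA mice in C, with group means of 3.59, 0.129 and -0.251, and the Klotho ratio has means of -0.594, -0.313 and 0.0505.

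In the order of medians per length, Slc34a1 led C at 140 FPKM, and its lowest mouse was above the highest value of any other member. The next 4 in C, Pdzk1 (6.49 FPKM), Vdr (6.34 FPKM), Slc20a1 (4.86 FPKM) and Slc34a3 (4.69 FPKM), overlapped in range, as did Klotho (2.24 FPKM), Slc20a2 (1.504 FPKM), Cyp27b1 (1.41 FPKM) and Cyp24a1 (0.949 FPKM). In M the first 5 medians lay between 1.53 and 1.97 FPKM, and Pdzk1, Slc34a3 and Cyp27b1 had a median of 0. In AA, Cyp24a1 (4.17 FPKM) and Slc34a1 (3.35 FPKM) came first, with overlapping ranges.

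Over the 15 libraries, the genes nearest to Slc34a1 on the log2(FPKM + 1) scale after centring, by root mean square difference among 16364 candidates, were Slc4a9, Klk1 and Slc27a2 (0.80 each, against an SD of Slc34a1 itself of 2.89). Slc27a2, a fatty acid transporter, is 1 of the 15 proximal tubule markers, whereas Slc4a9 and Klk1 are on none of the marker lists. Those nearest to Klotho were Cubn (0.23), the proximal endocytic receptor that also takes up vitamin D bound to its carrier, Hhatl (0.26) and Slc6a20b (0.26), against an SD of Klotho of 0.66. All these distances share the split between C and the adenine-fed mice and the depth of the libraries.

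The signals that act on these transporters were followed in a list of FGF23 and parathyroid hormone genes. Fgf23, a hormone made mainly in bone, measured 2.16, 0, 0.349, 1.86 and 1.20 FPKM in C mice and 0, 0, 0, 2.05 and 2.67 FPKM in M mice. It measured 8.70, 12.0, 6.13, 4.66 and 6.68 FPKM in AA mice, from 167 to 215 fragments each, and all AA mice were above all others. Fgf23 rose by 2.35 on the log2 scale in AA vs. M (SE 0.44, adjusted p = 0.00452) and by 2.10 in AA vs. C (SE 0.34, adjusted p = 0.00122), while M vs. C differed by -0.25 (adjusted p = 0.797). The AA vs. M call of Fgf23 was lost with TPM. Olfactory receptor genes also had more signal in AA: the mean of 1107 such genes was 0.0976 to 0.212 FPKM in AA, 0.00519 to 0.0652 FPKM in C and 0.00117 to 0.0506 FPKM in M. None of these 1107 genes reached the lowest Fgf23 value of AA in all 5 AA mice, a check chosen after seeing the data. Its limit was set by Fgf23 itself and lay far above the mean of the family, so it cannot measure background. The part of background in the Fgf23 result was not tested.

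Some of the receptors for both hormones were lower in AA than in C. Pth1r, the parathyroid hormone receptor, ranged from 19.3 to 89.2 FPKM in C (median 38.5), from 2.22 to 17.4 FPKM in M and from 8.15 to 16.9 FPKM in AA. It fell by 1.70 in AA vs. C (SE 0.41, adjusted p = 0.00811). In M vs. C its log2 fold change of -2.06 had an adjusted p of 0.0798, although the groups did not overlap. Fgfr4 fell by 1.73 (adjusted p = 0.00271) and Fgfr3 by 1.22 (adjusted p = 0.0110) in AA vs. C, whereas Fgfr1, the receptor through which Klotho mainly acts, differed by 0.06 (95% interval -0.40 to 0.51, adjusted p = 0.852) and Fgfr2 by -0.45 (95% interval -0.91 to 0.02, adjusted p = 0.120). Sgk1, a kinase that regulates tubular salt transport, fell by 1.10 in AA vs. C (adjusted p = 0.0325), with overlapping groups. Of the 14 genes of this list tested, 0 passed in M vs. C (limma, 5 at an unadjusted p under 0.05), 1 was higher in AA vs. M, and 1 was higher and 4 were lower in AA vs. C. Over all genes, limma gave an unadjusted p under 0.05 for 3493 of 21153 in M vs. C. The counts were 6360 of 19798 in AA vs. M and 10243 of 21898 in AA vs. C, and they stand beside the lists below too.

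The partners of the transporters were 8 genes for scaffolds, phosphate export and pyrophosphate. Pdzk1ip1, a small membrane protein that binds Pdzk1, measured 41.6 to 93.8 FPKM in C, 2.26 to 20.99 FPKM in M and 1.16 to 6.30 FPKM in AA. It fell in both comparisons with C, with a log2 fold change of -2.87 in M (SE 0.53, adjusted p = 0.0257) and -3.64 in AA (SE 0.36, adjusted p = 0.000111). The M vs. C call of Pdzk1ip1 was lost without M mice 1 to 3. It was also lost with every gene above 0 in any library tested. The scaffold Slc9a3r2, or NHERF2, fell by 1.31 in AA vs. C (adjusted p = 0.00330), and the scaffold Slc9a3r1, or NHERF1, which also holds Slc34a1 in the brush border, differed by -0.91 in M vs. C (adjusted p = 0.276) and by -0.70 in AA vs. C (adjusted p = 0.0846). Xpr1, the phosphate exporter, differed by -0.20 in M vs. C (adjusted p = 0.589) and by 0.18 in AA vs. C (adjusted p = 0.400). In all, 1 of the 8 was lower in M vs. C, 2 were lower in AA vs. C, and 0 passed in AA vs. M, where limma gave 0 at an unadjusted p under 0.05.

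The 10 vitamin D partners include the uptake receptor megalin (Lrp2), which brings vitamin D bound to its carrier into the proximal tubule. Lrp2 measured 3.61 to 23.6 FPKM in C, 0 to 2.19 FPKM in M and 1.24 to 3.79 FPKM in AA. It fell by 2.08 in M vs. C (SE 0.46, adjusted p = 0.0440) and by 1.29 in AA vs. C (SE 0.40, adjusted p = 0.0258), and AA vs. M differed by 0.79 (adjusted p = 0.143). The M vs. C call of Lrp2, which was listed at 0 in M mouse 2, was lost without M mice 1 to 3. It was also lost with every gene above 0 in any library tested. Of the 25-hydroxylases, Cyp27a1 fell by 1.62 in AA vs. C (adjusted p = 0.00470), and Cyp2r1 was near the lower limit, with group means of 0.110 FPKM in C and 0.178 FPKM in AA. Gc, the vitamin D carrier protein that the liver makes, rose by 1.27 in AA vs. C (adjusted p = 0.0166), with overlapping groups. Rxra, the partner of Vdr on DNA, differed by 0.04 in AA vs. C (95% interval -0.52 to 0.59, adjusted p = 0.917). Of these 10 genes 1 was lower in M vs. C, 2 were lower and 1 higher in AA vs. C, and 0 passed in AA vs. M (limma, 1 at an unadjusted p under 0.05).

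The 5 vitamin D targets of calcium transport had no call in any comparison. Calb1, the calcium buffer calbindin-D28k of the distal tubule, differed by -0.47 in M vs. C (95% interval -1.39 to 0.44, adjusted p = 0.596) and by 0.02 in AA vs. C (95% interval -0.75 to 0.79, adjusted p = 0.968). S100g, calbindin-D9k, had group means of 205 FPKM in C, 110 FPKM in M and 114 FPKM in AA, with -1.03 in M vs. C (adjusted p = 0.434) and -0.74 in AA vs. C (adjusted p = 0.275). At an unadjusted p under 0.05, limma gave 1 of the genes tested in each comparison, beside the counts of all genes given with the FGF23 list. Over the 4 lists, 2 of 37 genes tested were lower and 0 higher in M vs. C, 1 of 35 was higher in AA vs. M, and 8 of 37 were lower and 2 higher in AA vs. C, beside the shares of all genes given above.

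**Figure D4:**
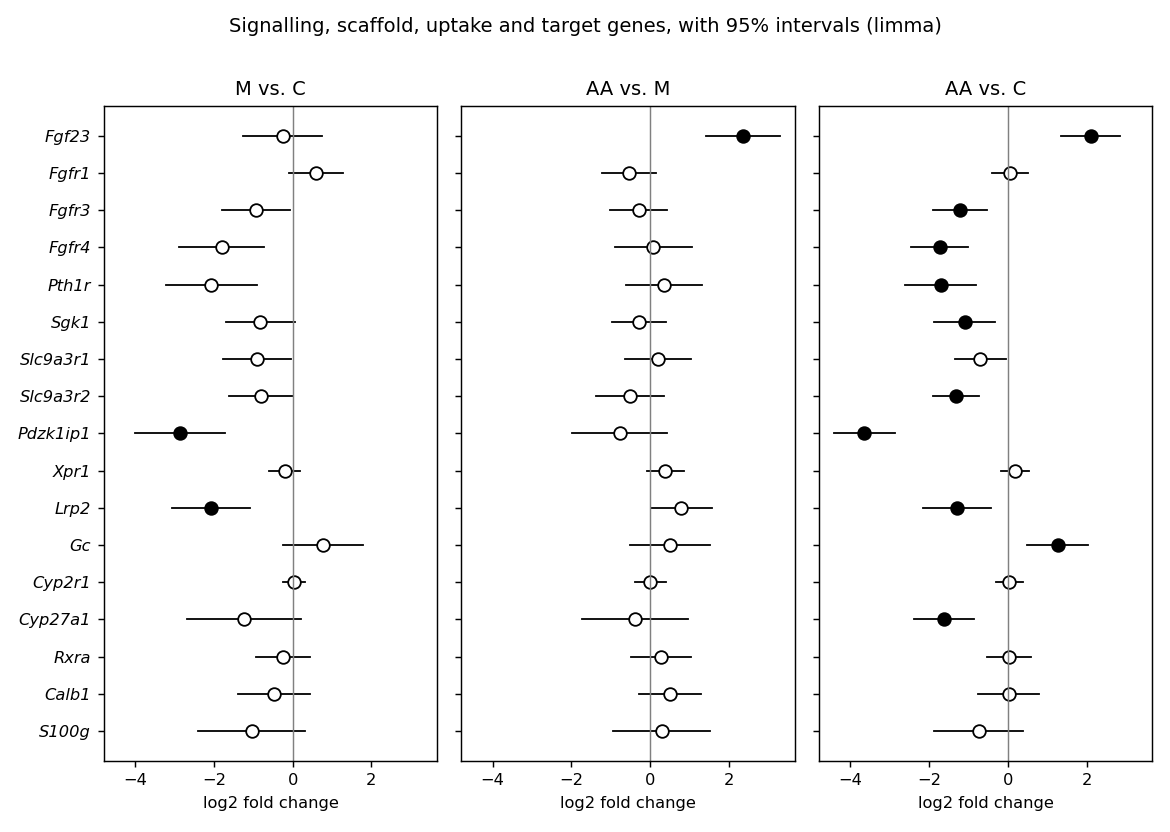
Log2 fold change on the log2(FPKM + 1) scale (horizontal axis) with its 95% interval for 17 genes of the signalling, scaffold, vitamin D uptake and target lists in the 3 comparisons of 5 mice against 5, filled where both thresholds were passed. Fgf23 is filled to the right in AA vs. M (2.35) and AA vs. C (2.10), and Pdzk1ip1 is filled to the left in M vs. C (-2.87) and AA vs. C (-3.64).

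Markers of some other cells moved with the groups too, while 0 of 4 endothelial markers were called in any comparison. The summed level of 8 macrophage markers was 18.5 to 102 FPKM in C, 136 to 399 FPKM in M and 95.6 to 147 FPKM in AA. Lyz2 was the largest part of it in M and AA (group means of 194 and 86.9 FPKM). Csf1r went the other way, with group means of 10.3 FPKM in C, 4.93 FPKM in M and 3.01 FPKM in AA. In AA vs. C, 3 of the 8 were called higher and 1, Csf1r, lower. The summed level of 5 fibroblast markers was 41.4 to 101 FPKM in C, 94.9 to 374 FPKM in M and 238 to 435 FPKM in AA. That of 6 tubule injury markers was 27.3 to 316 FPKM in C, 153 to 467 FPKM in M and 162 to 209 FPKM in AA. Most of this sum was Spp1, with group means of 94.7, 295 and 156 FPKM. The mean log2(FPKM + 1) of the 6 genes was 1.67 in C, 2.69 in M and 3.17 in AA. In AA vs. M, 2 of the 6 were called higher (Havcr1 and Sox9) and 0 lower, with 3 positive and 3 negative differences. No marker of these lists was at 0 throughout a group. Their part in the member results was not tested.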

How the data were processed

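RNA-seq of kidneys from 15 mice was grouped by the labels (5 mice each of C, M and AA). The authors trimmed reads with fastp, aligned them with HISAT2 2.0.5 to mm10, counted with featureCounts 1.5.0-p3 and deposited FPKM values, and the annotation they used is not given in the sources used here. Symbols, positions and exon lengths came from GENCODE M21 on GRCm38 (37 identifiers were not in it). Whole fragments were recovered from FPKM, length and the smallest step of each library (96.9% to 98.5% of low values whole within 0.02), and intervals or limits from them cover counting error only.

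Comparisons used limma 3.58.1 in R 4.3.3 (eBayes with trend) on log2(FPKM + 1). A gene entered a fit when at least 5 of its 10 values exceeded 0, and p-values were adjusted over all such genes by Benjamini-Hochberg. A call needed an adjusted p no larger than 0.05 together with an absolute log2 fold change no smaller than 1. Log2 ratios within a library (pseudocount 1) were tested by exact permutation with scipy 1.17.1, adjusted over 7 ratios and 3 comparisons. The members, gene lists and tests were chosen with earlier results of these data known. Named were all members, 12 fixed pathway genes, other pathway genes called in any comparison, and the 3 genes nearest to Slc34a1 and to Kl. Alternatives covered the pseudocount, filter, scaling, fit, limma voom on the recovered fragments, each library left out, and M mice 1 to 3 left out. Counts of members leave out Slc34a3 in M vs. C and AA vs. C, a choice made after seeing the data. Leaving out M mice 4 and 5, the olfactory receptor genes and the shares listed at 0 were added after the data were seen. The authors' DESeq2 on counts was not repeated, since their count table was not used here.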

Additional observations from a re-analysis of the deposited data

Results flagged for a closer look

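Among 48 sets of 5 mice checked for a single mouse far from the others (Dixon's ratio above 0.71), 5 were flagged, and chance alone flags about 1 in 20. Slc34a3 in AA was at 0.0527 FPKM in mouse 5 and listed at 0 in the other 4 mice. Slc20a1 in M was at 11.4 FPKM in mouse 5, with the next mouse at 3.45 FPKM. Cyp24a1 in C was at 9.32 FPKM in mouse 2, with the next at 1.62 FPKM. The log2 ratio of Cyp24a1 to Cyp27b1 in AA was -0.0062 in mouse 4, with the next at 1.89. The log2 ratio of Pdzk1 to the proximal tubule markers in AA was -1.10 in mouse 1, with the next at -0.54.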

How the results depend on the processing

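In M vs. C, 3 members were called (Slc34a3 included), and 2 with a pseudocount of 0.1, without the trend or with library quality weights, where Pdzk1 was lost, 0 with a filter of FPKM above 0 in any library, 5 with TPM, 5 with all 15 libraries in 1 fit, 0 without M mice 1 to 3, 7 without M mice 4 and 5, and 0 to 3 with 1 library left out. Called pathway genes numbered 2, and 1 with a pseudocount of 0.1, 0 with the wider filter, 10 with TPM, 6 with all 15 libraries, 1 without the trend, 1 with library quality weights, 4 with voom on recovered fragments, 0 without M mice 1 to 3, 10 without M mice 4 and 5, and 0 to 6 with 1 library left out. In AA vs. M, 1 member was called, and 0 with the wider filter, with TPM or without mitochondrial genes, 2 with quantile scaling, 2 without M mice 1 to 3, 3 without M mice 4 and 5, and 0 to 1 with 1 library left out. With library quality weights Slc20a1 was called (-1.27, limma adjusted p = 0.0332) and Pdzk1 was not (0.76, adjusted p = 0.0980). Called pathway genes in AA vs. M numbered 1, and 0 with TPM, 2 with quality weights, 3 with voom, 4 without M mice 1 to 3, 3 without M mice 4 and 5, and 1 to 2 with 1 library left out. In AA vs. C, 3 members, Slc34a3 included, became 8 with TPM, 5 with voom and 3 to 6 with 1 library left out, and 10 pathway genes became 17 with TPM, 16 with voom and 8 to 10. Calls over all genes moved with the same settings. In M vs. C they numbered 291 of 21153 genes, 33 of 31692 with the wider filter and 1609 with TPM. They numbered 786 with all 15 libraries in 1 fit, 14 without M mice 1 to 3 and 3094 without M mice 4 and 5. In AA vs. M they numbered 2533 of 19798, 422 with TPM and 1715 without M mice 1 to 3. Without M mice 4 and 5 they numbered 3676. In AA vs. C they numbered 4346 of 21898, 6785 with TPM and 7729 with voom. Of the 21 ratio tests 11 passed, 4 with a pseudocount of 0.1, 6 without M mice 1 to 3 (an exact permutation test of 2 mice against 5 cannot go below p = 0.0952) and 8 to 11 with 1 library left out.

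Signs reversed in M vs. C for Cyp24a1 (-0.60 with TPM, -0.20 with weights, -0.18 without M mice 1 to 3, -0.20 to 0.51 with 1 library left out), Slc20a1 (0.39 without M mice 1 to 3), the ratio of Pdzk1 to markers (-1.15 with a pseudocount of 0.1, -0.042 to 0.24) and that of Slc20a1 to Slc20a2 (0.40 without M mice 1 to 3). In AA vs. M they reversed for Slc34a1 (-0.27 with quantile scaling, -0.83 with weights, -0.20 with voom, -1.69 without M mice 1 to 3, -0.26 to 0.71), Slc20a2 (0.086 with a pseudocount of 0.1, 0.18 with voom, 0.052 without M mice 4 and 5), Cyp27b1 (0.44 with voom, 0.23 without M mice 4 and 5), Kl (-0.012 with quantile scaling), Vdr (-0.056 without M mice 1 to 3), and the ratios of Slc34a1 to Slc34a3 (-1.70 without M mice 1 to 3, -0.28 to 0.70) and to markers (-0.71 to 0.060). The cause was not tested. The median of all genes moved with TPM, from -0.12 to -0.58 in M vs. C and from 0.09 to -0.39 in AA vs. C, and with quantile scaling from 0.17 to -0.02 in AA vs. M. A replicate block left 1 pathway gene called in M vs. C. Mice with the same number did not deviate together (correlations from -0.23 to 0.17), so they share only a number. With any C library left out, Slc34a3 was above 0 in 4 libraries and was not tested in M vs. C. The depth outside mitochondrial genes, lowest in M mouse 2 and AA mouse 2, limits the members below 1 FPKM.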
